A study of Mus musculus with 9 samples.

Results

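The ATP-binding cassette (ABC) transporter family was measured in mouse pancreas tumours. Its members were taken as all genes whose array symbol is Abc, a subfamily letter from a to g and a number, with or without a further letter. This gave 48 of the 19057 genes on the array, read by 105 probes. A member was tested if at least 1 of its probes had a detection p-value under 0.05 on 3 or more of the 9 arrays, and 31 of the 48 members met this. All 9 samples were whole tumours that arose spontaneously in KPC mice, a widely used genetic model of pancreatic cancer. They comprised 3 tumours labelled as KPC with a conditional knockout of Twist (Twist cKO), 3 labelled as KPC with a conditional knockout of Snail (Snail cKO) and 3 labelled KPC alone. The sources used here give no strain, age or Cre driver. The design text of the series speaks of 2 mice in each group, while the labels number 9 separate mice. Twist and Snail are transcription factors of the epithelial-to-mesenchymal transition, and the comparison asks how gene expression differs in tumours labelled with a knockout of one of them.

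ABC transporters use the energy of ATP to move lipids, sterols, peptides, drugs and drug conjugates across membranes. Members of the B, C and G subfamilies pump many anticancer drugs out of cells, which made the family known in tumour biology. Other members load lipoproteins with cholesterol, move fatty acids into peroxisomes or regulate potassium channels, and the E and F subfamilies act on ribosomes and transport nothing. Twist and Snail bind E-boxes in DNA, short motifs of the form CANNTG, where N is any base, and Snail prefers the forms CACCTG and CAGGTG.

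Promoter windows from RefSeq (GRCm38.p6), 250 bases before to 50 bases after an annotated start, are shown for the efflux pump gene Abcb1b, the member with the largest difference between groups, and for the sterol pump gene Abcg5, the member with the widest range over tumours. The sources used here name no build for the array annotation. Capitals mark E-boxes, CANNTG, which reads the same on both strands and includes CACCTG and CAGGTG.
Abcb1b: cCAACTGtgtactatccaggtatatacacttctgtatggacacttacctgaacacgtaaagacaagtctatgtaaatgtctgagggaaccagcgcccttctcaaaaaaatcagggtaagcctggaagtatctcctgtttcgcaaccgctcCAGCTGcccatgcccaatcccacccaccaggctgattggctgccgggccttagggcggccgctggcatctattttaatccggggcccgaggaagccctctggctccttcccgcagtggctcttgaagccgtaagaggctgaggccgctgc
Abcg5: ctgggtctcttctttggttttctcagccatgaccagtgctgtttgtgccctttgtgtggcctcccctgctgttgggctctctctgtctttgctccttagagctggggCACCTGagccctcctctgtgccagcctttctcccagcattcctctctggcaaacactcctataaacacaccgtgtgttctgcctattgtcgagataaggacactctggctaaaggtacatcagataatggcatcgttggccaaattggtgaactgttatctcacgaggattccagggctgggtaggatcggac
The Abcb1b window lies on the plus strand at chr5:8797897-8798196 and holds 2 E-boxes, CAACTG and CAGCTG, and 0 of the forms CACCTG or CAGGTG. The Abcg5 window lies on the minus strand at chr17:84682962-84683261 and holds 1 E-box, CACCTG. The nearer start of Abcg8, the gene of its partner subunit, is on the opposite strand with 109 bases between the 2 starts, and 209 bases of the 2 windows are shared. Of the 32851 windows of all genes, 72.3% hold CANNTG and 20.2% hold CACCTG or CAGGTG, so such letters are common. Only 38 of the 48 members had a window (79.2%), too few for a share over the family.

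The arrays detected 16707 probes (36.9%) in Snail cKO tumour 2 and 18864 to 19606 probes in the other 8 tumours. Values are log2 intensities after background correction and quantile normalization. Twist1 measured 4.60, 4.67 and 5.23 in the Twist cKO tumours, against 9.19, 7.46 and 7.25 in the KPC tumours, with a log2 difference of -3.13 (SE 0.95, limma adjusted p = 0.978). In the Snail cKO tumours Twist1 measured 8.66, 4.65 and 7.56, so a low value was not limited to the Twist cKO tumours. Snai1, the gene of Snail, measured 7.79, 6.08 and 7.30 in the Snail cKO tumours, against 7.91, 7.46 and 6.89 in the KPC tumours, so the groups overlapped (-0.36, SE 0.62) and the Snail cKO label rests on the labels alone. The sources used here do not place these probes relative to the deleted parts. 3 tumours stood apart. Twist cKO tumour 2 had the epithelial keratin gene Krt8 at 5.05, against 9.52 to 13.97 in the other 8 tumours, and a summed intensity of 11501 over the 3 tested of 5 adipocyte markers, against 78.8 to 416 in the others. KPC tumour 1 had a summed intensity of 1232 over the 4 tested of 5 epithelial markers, against 18543 to 32282 in the tumours other than these 2. It also had the highest sum over the 10 tested of 11 macrophage markers. Snail cKO tumour 3 had a summed intensity of 8273 over the 5 tested of 14 small intestine genes, against 122 to 337 in the others. That list was chosen after these values were seen. The tumours also fall into 2 array sets by the pattern of their undetected probes, one with the 3 KPC tumours, Twist cKO tumour 3 and Snail cKO tumour 3, and one with the remaining 4. The second set holds no KPC tumour, so a difference from KPC that is blocked on array set cannot fully separate set from genotype.

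No ABC family member passed the test in any comparison of groups. In limma over 11537 genes, with adjusted p under 0.05 as the threshold, 0 genes and 0 of the 31 members passed in Twist cKO against KPC, and likewise in Snail cKO against KPC, in Snail cKO against Twist cKO and in the pooled cKO tumours against KPC (0% of all genes called in each). The smallest adjusted p of a member was 0.978, 1.00, 0.986 and 0.999 in that order. At an unadjusted p under 0.05, Twist cKO against KPC held 1 member of 31 (3.23%), with the lower mean in Twist cKO, and 409 of all genes (3.55%), of which 260 were lower (2.25%). Snail cKO against KPC held 5 members (16.1%), all with the lower mean in Snail cKO, and 311 of all genes (2.7%), of which 195 were lower (1.69%). Snail cKO against Twist cKO held 2 members (6.45%), both lower in Snail cKO, and 436 of all genes (3.78%), of which 208 were lower (1.8%). Both cKO groups against KPC held 3 members (9.68%), all lower in the cKO tumours, and 332 of all genes (2.88%), of which 224 were lower (1.94%). These 3 were Abca8b, Abca15 and Abcb1b. The 5 in Snail cKO against KPC were Abcb1b, Abca2, Abca9, Abca8b and Abca15, and the 1 in Twist cKO against KPC was Abca8b. The used probes of Abca8b and Abca15 met the detection filter through the 3 KPC arrays, where they were brightest, so a lower value outside KPC was favoured by the filter and no count that includes them is read as a result. The first 2 of these comparisons share their KPC tumours, and the fourth uses all 9 tumours.

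Differences of both signs nearly cancelled over the family, while their sizes were not all like those of all genes. The mean was lower in 20 of the 31 members in Twist cKO against KPC (64.5%, against 56.3% of all genes) and in 15 in Snail cKO against KPC (48.4%, against 54% of all genes). Both counts include Abca8b and Abca15, whose lower values outside KPC the filter favoured, so neither is read as a result. The median log2 difference of the members was -0.092 in Twist cKO against KPC, where the median of all genes was -0.066. It was 0.0062 in Snail cKO against KPC (all genes -0.035), -0.028 in Snail cKO against Twist cKO (all genes 0.023) and -0.016 in both cKO groups against KPC (all genes -0.045). Without regard to sign, the median size of a member's difference was 0.36 in Twist cKO against KPC (all genes 0.30), 0.29 in Snail cKO against KPC (all genes 0.26), 0.41 in Snail cKO against Twist cKO (all genes 0.29) and 0.16 in both cKO groups against KPC (all genes 0.24). The median range of a member over the 9 tumours was 1.38 on the log2 scale, and that of all genes 1.51. The pooled SD within groups had a median of 0.46 over members and 0.49 over all genes.

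**Figure D1:**
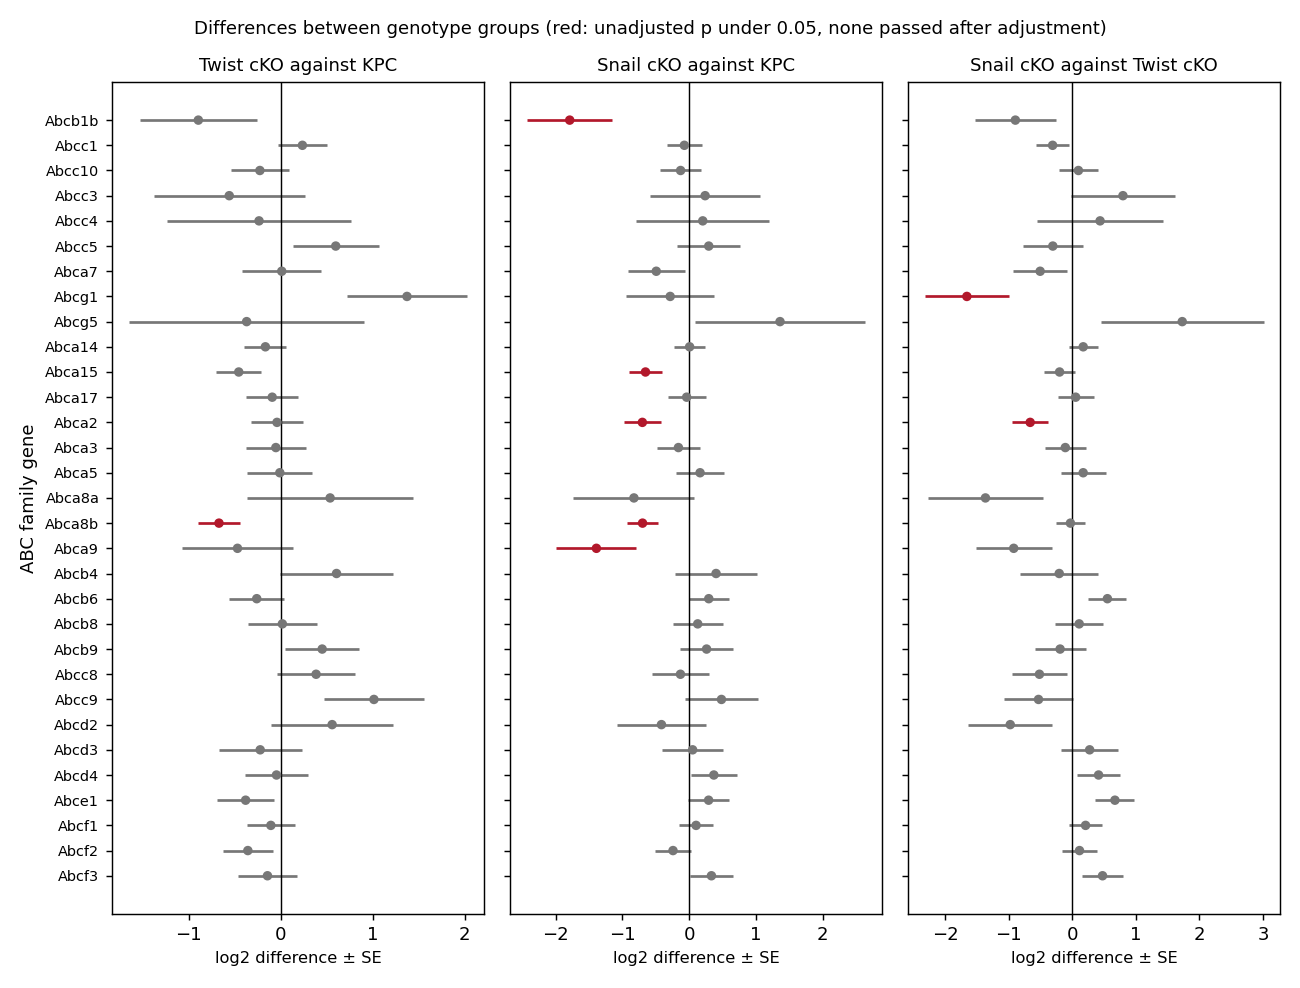
Log2 differences (x axis) of the 31 tested members (y axis, ordered by role) for Twist cKO against KPC (left), Snail cKO against KPC (middle) and Snail cKO against Twist cKO (right). Points are fitted differences, lines their standard errors, and red marks an unadjusted p under 0.05, which 1, 5 and 2 members reached while none passed after adjustment. Abca8b and Abca15 met the detection filter through the KPC arrays.

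Of the drug and conjugate efflux members, 6 of 12 were tested, and Abcb1b had the largest group difference. Abcb1b encodes one of the P-glycoproteins of the mouse, pumps with a wide range of drug substrates. It measured 9.77, 7.61 and 9.20 in the tumours of Twist cKO, 9.11, 7.39 and 7.40 in the Snail cKO tumours and 9.35, 9.92 and 9.99 in the KPC tumours. All 3 Snail cKO tumours lay below all 3 KPC tumours, while the Twist cKO tumours overlapped both groups. The log2 difference was -1.79 in Snail cKO against KPC (SE 0.64, unadjusted p = 0.022, limma adjusted p = 1.00). The exact two-sided permutation p was 0.1, the smallest that 3 against 3 allows. Leaving out 1 tumour at a time gave -2.36 to -1.50, blocking on array set gave -1.90, and leaving out the 3 tumours that stood apart gave -1.71. In Twist cKO against KPC it was -0.90 (SE 0.64), and -0.27 without Twist cKO tumour 2. Every value is a mean over the cells of a tumour, so fewer cells of a type and less RNA per cell cannot be told apart. In Snail cKO, 4 members lay below KPC in every tumour (12.9%), against 5.84% of all genes, and 0 lay above, against 2.84%. The 4 were Abcb1b, Abca2 and the Abca8b and Abca15 whose probes met the filter through KPC.

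Abcb1a, the second drug-pumping P-glycoprotein gene, was not well above background on any array, with 4.31 to 4.55 in Twist cKO, 4.37 to 4.54 in Snail cKO and 4.37 to 4.67 in KPC tumours. Abcg2, the breast cancer resistance protein gene, was detected in Snail cKO tumour 1 alone, at 5.33. Abcc2, which exports conjugates at the apical membrane of liver and intestine cells, was detected in Snail cKO tumour 3 alone, at 6.77, against 4.44 to 4.73 in the other 8 tumours. That was 1 of its 2 probes. The other was detected on no array and measured 4.66 in Snail cKO tumour 3, so the probes disagreed. Neither Abcg2 nor Abcc2 was tested. Abcc1, a broad exporter of glutathione conjugates, measured 5.36, 5.03 and 5.18 in Twist cKO, 5.14, 4.54 and 4.96 in Snail cKO and 4.72, 4.98 and 5.16 in KPC tumours. Its groups overlapped in every pair, with differences of 0.24 in Twist cKO against KPC and -0.073 in Snail cKO against KPC (SE 0.26 for both). Its probes disagreed in Snail cKO tumour 2, where the used probe was lowest and undetected while another, seen on that array alone, measured 6.47.

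Abcc3 and Abcc4 differed more between single tumours than between groups. Abcc3 exports bile salts and glucuronides at the basolateral side of epithelial cells. It measured 10.19, 7.19 and 8.94 in Twist cKO, 8.81, 10.03 and 9.87 in Snail cKO and 8.00, 9.85 and 10.15 in KPC tumours. Abcc4 exports cyclic nucleotides and prostaglandins. It measured 10.25, 7.96 and 10.09 in Twist cKO, 8.68, 11.69 and 9.24 in Snail cKO and 8.08, 10.23 and 10.69 in KPC tumours. Both genes were lowest in Twist cKO tumour 2 and KPC tumour 1, with Snail cKO tumour 1 next for both. Krt8 was 5.05 in Twist cKO tumour 2 and 9.52 in KPC tumour 1, and at least 13.43 in the others, and the part of the epithelial share in these values was not tested. The group differences of Abcc3 were -0.56 in Twist cKO against KPC and 0.24 in Snail cKO against KPC (SE 0.82 for both), and those of Abcc4 were -0.24 and 0.20 (SE 1.00 for both). Without Twist cKO tumour 2, Abcc3 in Twist cKO against KPC was 0.23 and Abcc4 was 0.50, so both signs turned.

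Abcc5, an exporter of cyclic nucleotides and nucleotide analogs, was the 1 member whose Twist cKO tumours all lay above the KPC tumours (3.23%, against 2.99% of all genes). It measured 8.53, 8.78 and 8.90 in Twist cKO, 7.78, 9.52 and 7.99 in Snail cKO and 7.63, 8.44 and 8.34 in KPC tumours. Its difference in Twist cKO against KPC was 0.60 (SE 0.47, exact permutation p = 0.1), with 0.34 (without KPC tumour 1) to 0.75 when 1 tumour was left out at a time. Abcc10, a further exporter of this subfamily, ranged from 5.86 to 6.85 over the 9 tumours and its groups overlapped. Abcc6 and Abcg3 were each detected on 1 array, in Twist cKO tumour 3 and Snail cKO tumour 2, and Abcc12 on none.

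**Figure D2:**
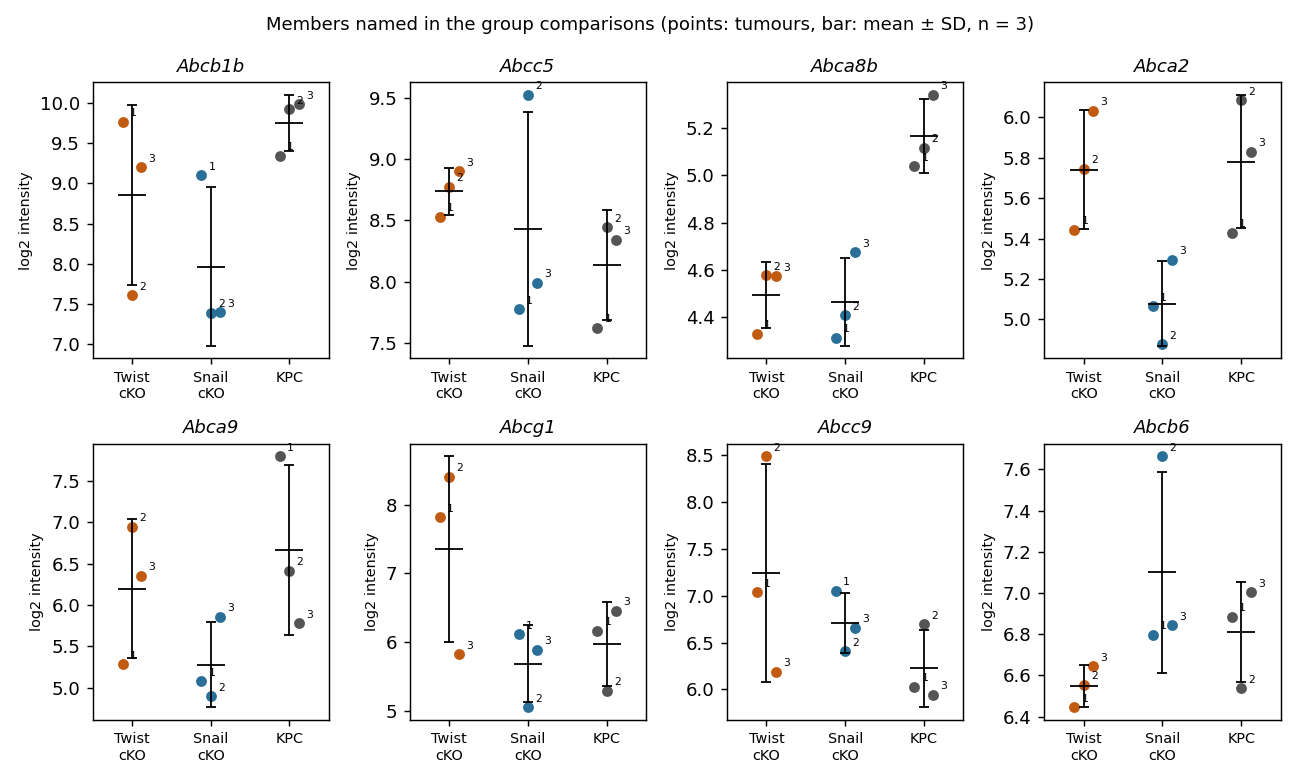
Log2 intensity (y axis) of 8 members in the Twist cKO, Snail cKO and KPC tumours (x axis). Each point is a tumour, numbered by replicate, and bars give the mean ± SD (n = 3). Abcb1b, Abca8b and Abca2 lie below all KPC tumours in every Snail cKO tumour, and Twist cKO tumour 2 has the highest Abcg1 and Abcc9. The used Abca8b probe met the detection filter through the KPC arrays alone, which favours its separation, and another probe of the gene disagreed.

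Among the 6 members that export cholesterol and phospholipids, 3 were tested, and Abcg1 and Abcg5 varied between single tumours. Abcg1 passes cholesterol to high-density lipoprotein and is a target of the liver X receptors in macrophages. It measured 7.82, 8.40 and 5.83 in Twist cKO, 6.12, 5.06 and 5.89 in Snail cKO and 6.17, 5.30 and 6.46 in KPC tumours. Twist cKO tumours 1 and 2 were above all other tumours and tumour 3 was not. The difference was -1.66 in Snail cKO against Twist cKO (SE 0.66, unadjusted p = 0.034, limma adjusted p = 0.986) and 1.37 in Twist cKO against KPC (SE 0.66). Twist cKO tumours 1 and 2 are in the second array set. Within the first set alone the differences were 0.066 and -0.15, with 1 tumour for each cKO group. The summed macrophage marker intensity was 13091, 27556 and 12937 in Twist cKO, 9462, 6638 and 13701 in Snail cKO and 52470, 17908 and 7609 in KPC tumours. Its part in Abcg1 was not tested.

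Abcg5 pairs with Abcg8 to pump sterols out of intestine and liver cells. It measured 5.17, 4.73 and 4.60 in Twist cKO, 4.80, 4.81 and 10.08 in Snail cKO and 4.62, 4.69 and 6.29 in KPC tumours. Snail cKO tumour 3 alone was high, and the probe was detected in only 2 other tumours, Twist cKO tumour 1 and KPC tumour 3. Abcg8, detected on that array alone and not tested, measured 8.05 there and 4.37 to 4.76 in the other 8 tumours. The mean difference of Abcg5 in Snail cKO against KPC, 1.36 (SE 1.28), was -0.40 without Snail cKO tumour 3. The pair whose starts lie head to head in the window printed above was thus bright in the same tumour, together with 1 of the 2 Abcc2 probes. In that tumour the brush border genes Sis and Alpi measured 10.70 and 9.61, and the lipoprotein gene Apoa4 measured 11.83. Sis was 4.27 to 5.95, Alpi 4.32 to 4.67 and Apoa4 4.41 to 5.54 in the other 8 tumours. Of the 14 small intestine genes 10 were detected there and 4 (Lct, Fabp1, Fabp2 and Slc10a2) were detected on no array, and the part of intestinal tissue in the Abcg5 and Abcg8 signal was not tested.

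Abca7, which moves phospholipids and takes part in phagocytosis, measured 9.42, 10.44 and 9.27 in Twist cKO, 9.71, 8.45 and 9.47 in Snail cKO and 9.41, 9.86 and 9.83 in KPC tumours. Its groups overlapped, with the highest value in Twist cKO tumour 2 and the lowest in Snail cKO tumour 2. Abcg4, a sterol exporter of the brain, was detected in Twist cKO tumour 3 and KPC tumour 2 alone. Abca1, the exporter that starts the formation of high-density lipoprotein, has 1 probe, which was not well above background on any array (4.32 to 4.53), so no level can be given for it.

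**Figure D3:**
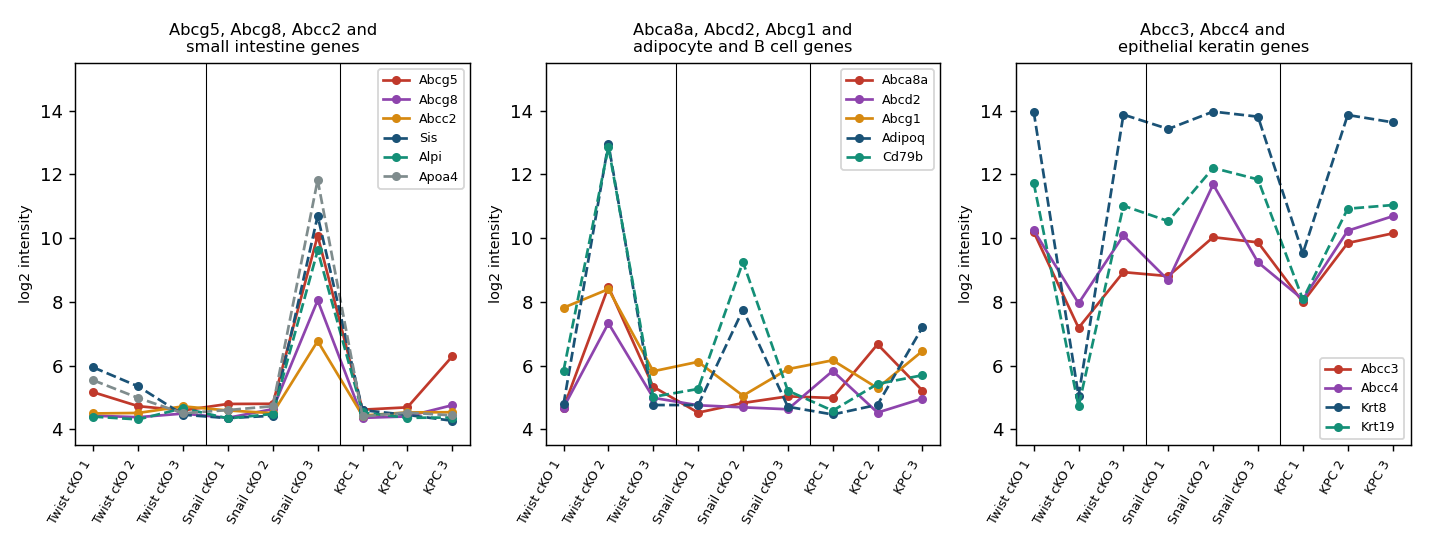
Log2 intensity (y axis) in the 9 tumours (x axis) of members (solid lines) and marker genes of cell types or tissues (dashed lines). Left, Abcg5, Abcg8 and the Abcc2 probe shown peak in Snail cKO tumour 3 with Sis, Alpi and Apoa4. The other Abcc2 probe was detected on no array. Middle, Abca8a, Abcd2 and Abcg1 are highest in Twist cKO tumour 2, where Adipoq and Cd79b reach 12.96 and 12.86. Right, Abcc3 and Abcc4 are lowest in Twist cKO tumour 2 and KPC tumour 1, as are Krt8 and Krt19. Lines join tumours for reading only, and values below about 5 are mostly undetected.

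Of the other A subfamily genes, which carry lipids, 9 of 14 were tested. In Snail cKO against KPC 7 of the 9 had a lower mean (median -0.65), where 54% of all genes did and their median was -0.035. In Twist cKO against KPC 8 of the 9 had a lower mean, where 56.3% of all genes did, and the median of -0.092 was close to the -0.066 of all genes. These counts include Abca8b and Abca15, whose lower values outside KPC the filter favoured. The median in Snail cKO against KPC is the difference of Abca15 itself, so it is not read as a shift of these genes. Abca2, a lipid transporter of lysosomes and of myelin-forming cells, measured 5.44, 5.75 and 6.03 in Twist cKO, 5.06, 4.88 and 5.29 in Snail cKO and 5.43, 6.08 and 5.83 in KPC tumours. The Snail cKO tumours lay below every other tumour. The difference was -0.70 against KPC (SE 0.28, unadjusted p = 0.035) and -0.66 against Twist cKO (SE 0.28, unadjusted p = 0.044), with limma adjusted p of 1.00 and 0.986. Without background correction these were -0.25 and -0.23, and with array set blocked the first was -0.45. Its 1 probe was not detected in Snail cKO tumour 2, the array with the fewest probes detected. Abca2 was the 1 member whose Snail cKO tumours all lay below the Twist cKO tumours (3.23%, against 3.97% of all genes).

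Abca8b, Abca8a and Abca9 sit in a gene cluster on chromosome 11. The used Abca8b probe was detected on the 3 KPC arrays and on no other. It measured 4.33, 4.58 and 4.57 in Twist cKO, 4.31, 4.41 and 4.67 in Snail cKO and 5.04, 5.12 and 5.34 in KPC tumours. Where a probe is not well above background on any array of a group only a bound can be given. It was at least 1.14-fold lower in Twist cKO (measured means 4.49 against 5.17) and at least 1.06-fold lower in Snail cKO (measured means 4.47 against 5.17). Each such bound is the KPC mean over a dim-group mean that takes, per array, the higher of the lowest detected signal and the probe's own. The limma adjusted p was 0.978 in Twist cKO and 1.00 in Snail cKO. The probe met the detection filter through its KPC arrays alone, so its values are a description. The probes of the gene disagreed: a second one was detected in Snail cKO tumours 1 and 2 alone, at 5.21 and 6.03, so the bound holds for the used probe alone.

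Abca15, of a cluster on chromosome 7, showed the same pattern with its used probe. It measured 4.91, 5.04 and 4.87 in Twist cKO, 4.54, 5.04 and 4.65 in Snail cKO and 5.30, 5.28 and 5.62 in KPC tumours. It was detected in all 3 KPC tumours, in Twist cKO tumour 2 and in no Snail cKO tumour, where it was at least 1.24-fold lower (measured means 4.74 against 5.40, limma adjusted p = 1.00). The difference in Twist cKO against KPC was -0.46 (SE 0.24). A second kept probe was detected in Twist cKO tumours 1 and 2 and Snail cKO tumour 2 and in no KPC tumour, so here too the probes disagreed. Abca8b and Abca15 were the 2 members below KPC in every Twist cKO tumour (6.45%, against 5.07% of all genes) and in all 6 cKO tumours (6.45%, against 1.33% of all genes), a separation that the detection filter favours for both probes.

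Abca9 measured 5.29, 6.95 and 6.35 in Twist cKO, 5.07, 4.89 and 5.86 in Snail cKO and 7.80, 6.42 and 5.78 in KPC tumours. Its Snail cKO and KPC tumours overlapped through Snail cKO tumour 3 and KPC tumour 3. The difference was -1.39 in Snail cKO against KPC (SE 0.60, unadjusted p = 0.047, limma adjusted p = 1.00), and -0.82 without KPC tumour 1. The other 2 kept probes of the gene gave -0.36 and -0.55. KPC tumour 1 had the highest Abca9 and the highest macrophage sum, 52470, whose part in the value was not tested.

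Abca8a measured 4.68, 8.47 and 5.34 in Twist cKO, 4.53, 4.83 and 5.04 in Snail cKO and 4.99, 6.67 and 5.22 in KPC tumours. Twist cKO tumour 2 was far above the other tumours, and without it the difference in Twist cKO against KPC was -0.62 in place of 0.54 (SE 0.91). Abca3, the phospholipid loader of lung surfactant, was detected on all 9 arrays and held within 11.27 to 12.22, the groups overlapping in every pair. Abca5, Abca14 and Abca17 ranged over 4.43 to 5.69 and overlapped as well. Abca4, Abca12, Abca13 and Abca16 were detected on no array and Abca6 in Snail cKO tumour 1 alone.

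Abcb4, the phosphatidylcholine exporter of bile, was detected in 1 tumour of each group: Twist cKO tumour 2 at 6.50, Snail cKO tumour 1 at 6.07 and KPC tumour 1 at 5.05. The bile salt pump gene Abcb11 was detected on no array. Of the genes of mitochondria and lysosomes, Abcb6, a porphyrin transporter, measured 6.45, 6.55 and 6.64 in Twist cKO, 6.80, 7.66 and 6.84 in Snail cKO and 6.88, 6.54 and 7.00 in KPC tumours. It was the 1 member whose Snail cKO tumours all lay above the Twist cKO tumours (3.23%, against 4.25% of all genes), by 0.55 (SE 0.30), or 0.27 without Snail cKO tumour 2. Abcb8, of the inner mitochondrial membrane, ranged from 7.10 to 8.40 with overlapping groups. Abcb9, a lysosomal peptide transporter, ranged from 5.83 to 7.38, with its highest value in Twist cKO tumour 2. The mitochondrial gene Abcb10 and Abcb5 were detected on no array.

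The KATP channel regulators differed in where they were seen. The used probe of Abcc8, the sulphonylurea receptor of islet beta cells, was detected in Twist cKO tumours 1 and 3 at 5.93 and 5.04 and in KPC tumour 2 at 5.33. Another probe of it was detected in Snail cKO tumour 2 alone, at 6.00. Ins2, an insulin gene, measured 6.28 and 8.63 in those Twist cKO tumours and was highest in KPC tumour 2, at 11.09. Ins2 was 9.01 and the used Abcc8 probe 4.51 in Snail cKO tumour 3. Abcc9, the sulphonylurea receptor of muscle and pericytes, measured 7.04, 8.48 and 6.19 in Twist cKO, 7.05, 6.41 and 6.66 in Snail cKO and 6.03, 6.70 and 5.94 in KPC tumours. Its Twist cKO against KPC difference was 1.01 (SE 0.54), 0.39 without Twist cKO tumour 2 and -0.033 within the first array set. Kcnj8, the channel pore that works with Abcc9, was also highest in Twist cKO tumour 2, at 7.41, against 5.82 to 6.82 in the other 8 tumours. The summed intensity over the 5 tested of 6 smooth muscle and pericyte markers was lowest there, at 1887, against 2580 to 15656. The median deviation of these markers from their means over the 9 tumours was -0.036 there. The part of these cells in the Abcc9 values was not tested.

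Of the genes of peroxisomes and cobalamin, Abcd2, a very-long-chain fatty acid transporter, measured 4.69, 7.33 and 4.99 in Twist cKO, 4.76, 4.69 and 4.63 in Snail cKO and 5.84, 4.53 and 4.97 in KPC tumours. It was detected in Twist cKO tumours 2 and 3 and KPC tumour 1. Twist cKO tumour 2 stood out, with Adipoq at 12.96. KPC tumour 1, the next highest for Abcd2, had Adipoq at 4.47. Snail cKO tumour 2 had Adipoq at 7.76 with Abcd2 undetected. Twist cKO tumour 2 and KPC tumour 1 also had the highest macrophage sums, 27556 and 52470. The part of adipose tissue or of any cell type in the Abcd2 values was not tested. Abcd3, the abundant peroxisomal half-transporter, was detected on all 9 arrays at 9.98 to 11.36 with overlapping groups. Abcd4, of lysosomal cobalamin export, measured 6.96, 6.56 and 7.23 in Twist cKO, 7.92, 7.17 and 6.90 in Snail cKO and 7.12, 6.63 and 7.13 in KPC tumours. Its difference of 0.37 in Snail cKO against KPC (SE 0.34) was -0.063 within the first array set, and its second probe gave -0.11.

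The ribosome-binding members were detected on all 9 arrays, and their groups overlapped in every pair. Abce1, which splits ribosomes for recycling, measured 6.51, 7.02 and 6.48 in Twist cKO, 7.28, 7.75 and 6.99 in Snail cKO and 7.40, 6.89 and 6.86 in KPC tumours. The difference was 0.67 in Snail cKO against Twist cKO (SE 0.31, unadjusted p = 0.057), with Twist cKO tumour 2 just above Snail cKO tumour 3. Abcf3, of the translation-associated F subfamily, measured 8.61, 9.45 and 9.18 in Twist cKO, 9.37, 10.03 and 9.27 in Snail cKO and 9.24, 9.00 and 9.43 in KPC tumours. Its log2 differences were 0.33 in Snail cKO against KPC and 0.48 in Snail cKO against Twist cKO (SE 0.32 for both). Abcf1 ranged from 10.56 to 11.29 and Abcf2 from 10.27 to 11.19, with the highest Abcf2 in KPC tumour 1.

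**Figure D4:**
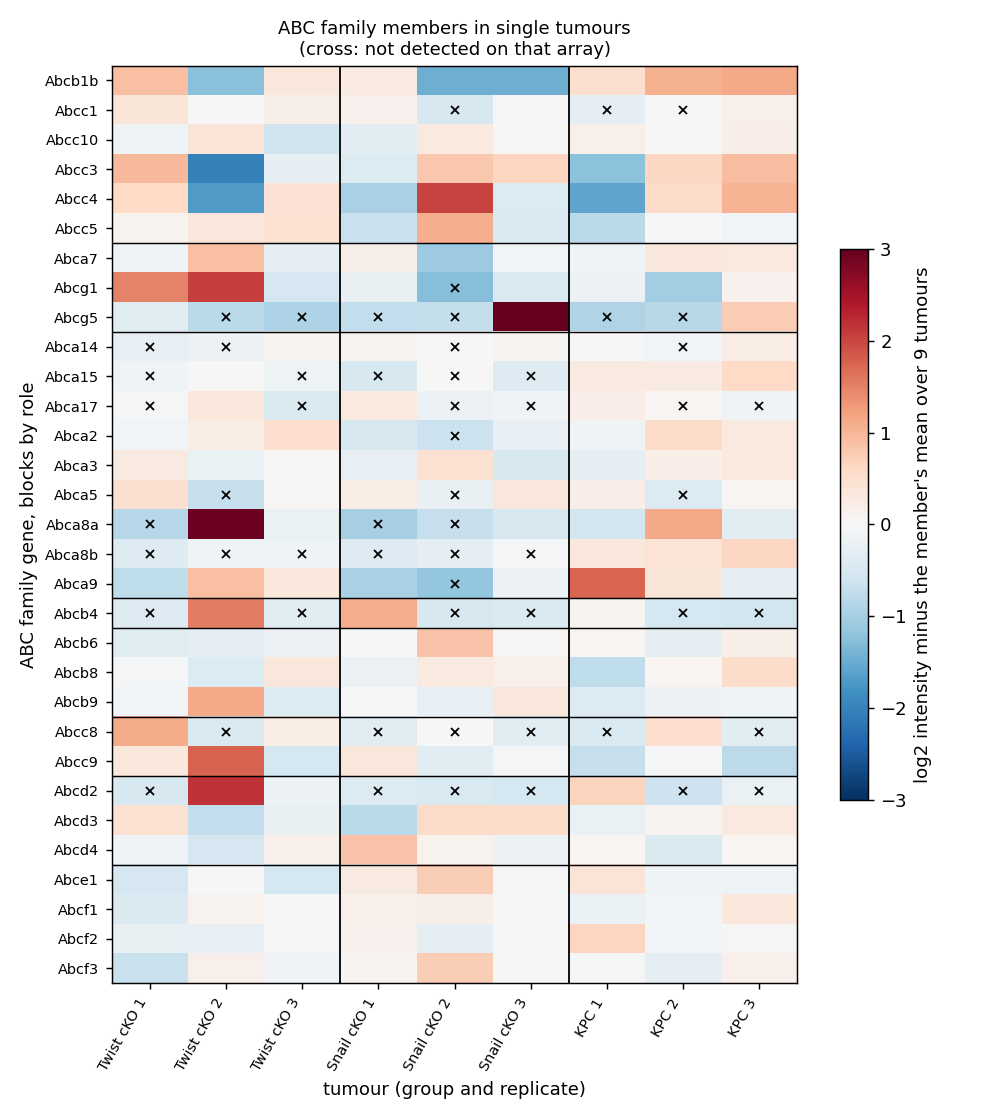
Deviation of each of the 31 tested members (rows, in blocks by role) from its mean over the 9 tumours (columns, Twist cKO, then Snail cKO, then KPC), on the log2 scale with the colours ending at -3 and 3. Crosses mark arrays on which the used probe was not detected. Abcg5 in Snail cKO tumour 3 and Abca8a in Twist cKO tumour 2 are the strongest single values.

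The 8 members with the widest range were Abcg5 (5.48), Abca8a (3.95), Abcc4 (3.73), Abcg1 (3.34), Abcc3 (3.01), Abca9 (2.91), Abcd2 (2.80) and Abcb1b (2.60). In Twist cKO tumour 2, 6 of the 31 members lay more than 1 log2 unit above their mean over the 9 tumours, 19.4% against 9.90% of all genes. They were Abca8a, Abcd2, Abcg1, Abcc9, Abcb4 and Abcb9. In the same tumour 3 members lay more than 1 below, 9.68% against 13.7% of all genes: Abcc3, Abcc4 and Abcb1b. Snail cKO tumour 2 had 4 members more than 1 below, 12.9% against 7.51% of all genes (Abca7, Abca9, Abcb1b and Abcg1), and 2 above, Abcc4 and Abcc5, 6.45% against 5.47% of all genes. Twist cKO tumour 3 had 0 above and 0 below, against 3.71% and 1.69% of all genes.

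Other genes that work with the family were read from lists of 69 genes, of which 56 were tested and 0 passed in any comparison. Of all genes, 3.55% had an unadjusted p under 0.05 in Twist cKO against KPC, 2.7% in Snail cKO against KPC and 3.78% in Snail cKO against Twist cKO. Of the 56 listed genes, 2 were higher and 1 lower in Twist cKO against KPC at that threshold. It was 1 higher and 1 lower in Snail cKO against KPC, and 1 higher and 2 lower in Snail cKO against Twist cKO. Among them Apoc1, an apolipoprotein gene and liver X receptor target, had a difference of 2.27 in Twist cKO against KPC (SE 0.95), or 1.03 without Twist cKO tumour 2. The others in that comparison were the antigen peptide loading genes Tapbp, at 0.83 (SE 0.33), and Calr, at -1.28 (SE 0.51). Gstp1, a glutathione transferase that makes conjugates for efflux, had 1.14 in Snail cKO against KPC (SE 0.38), each Snail cKO tumour being above the KPC tumours. Each Twist cKO tumour was also above the KPC tumours for Gstp1, with a difference of 0.65 (SE 0.38). Npc1, which releases cholesterol from lysosomes, had -1.40 in Snail cKO against KPC (SE 0.59), and -0.41 when array set was a block. Nfe2l2, the regulator of glutathione and efflux genes, had 1.25 in Snail cKO against Twist cKO (SE 0.49), and Apoe had -1.42 (SE 0.59). The remaining gene under the threshold in that comparison was one of antigen peptide loading.

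3 ABC genes carry other symbols and are not among the 48. The chloride channel gene Cftr measured 7.75, 4.89 and 9.25 in Twist cKO, 8.81, 9.70 and 11.43 in Snail cKO and 6.05, 9.85 and 10.70 in KPC tumours. The low values were those of the tumours with low Krt8. The antigen peptide transporter genes Tap1 and Tap2 were highest in Twist cKO tumour 2, at 9.37 and 10.56, against at most 6.57 and 8.11 in the other 8 tumours. The B cell gene Cd79b was 12.86 in that tumour. The summed intensity over the 2 tested of 5 T cell markers was 7856 there, against 44.8 to 318 in the others. The part of these cells in the Tap1 and Tap2 values was not tested.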

How the data were processed

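Total RNA of 9 tumours, 3 per group, was hybridised to 1-colour Illumina mouse arrays. For 45281 probes the authors deposited a mean bead intensity with a detection p-value, per the file headers. Judging from its values, the intensity was linear, with no normalization across arrays. The submitters' processing notes name GenomeStudio 5.0. A second deposited table of intensity values was, on each array, a straight line of the bead intensity (slopes 0.795 to 1.16). The sources used here do not say how it was made. Column medians were 21.7, 22.4 and 11.2 for the Twist cKO, 21.7, 23.3 and 9.3 for the Snail cKO and 14.6, 13.7 and 17.3 for the KPC tumours.

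Genes came from the platform annotation (34885 probes with 1 symbol, 18 with several and 10378 with none), and 34807 matched the RefSeq list of GRCm38.p6. Intensities were background-corrected from the detection p-values, quantile-normalized and log2-transformed by neqc (offset 16) in limma 3.58.1 under R 4.3.3. Probes detected (p-value under 0.05) on 3 or more arrays were kept, 20940 in all and 17841 with 1 symbol, and each gene took its kept probe of highest mean, which left 11537 genes. The model, 1 mean per group over the 9 arrays, used lmFit and eBayes (6 residual degrees of freedom, a prior of 2.57). P-values were two-sided and adjusted by Benjamini-Hochberg over all genes. Errors of differences are standard errors of this fit. The number of arrays limits the precision. The code was tested on simulated data.

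Members were named in full for the 3 smallest unadjusted p-values in each direction of the first 3 comparisons, the 8 widest ranges over tumours, and Abcb1a, Abcb1b, Abcc1 to Abcc5 and Abcg2. The other genes named came from fixed lists. The members and lists were chosen with earlier results of these data known. The alternatives covered background correction, normalization, the deposited table, the detection filter, the probe rule, the fit, the array set and left-out tumours.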

Additional observations from a re-analysis of the deposited data

How the results depend on the processing

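No member passed under any of 22 settings (smallest adjusted p 0.535). Of 124 member differences, 84 turned sign under at least 1 setting, in 239 of 2692 recomputed values, and of the 18 named differences 6 did. Within the first array set, which leaves 1 tumour in each cKO group whose spread is assumed to be like that of the others, Abcg1 was -0.15 in Twist cKO against KPC and 0.066 in Snail cKO against Twist cKO, Abcc9 was -0.033 in Twist cKO against KPC and Abcd4 was -0.063 in Snail cKO against KPC. Abca8b in Snail cKO against KPC was 0.57 with detection on at least 1 array and 0.57 with no filter, where another probe of the gene is used. Abcg5 in Snail cKO against KPC was -0.40 without Snail cKO tumour 3 (up to 2.24 when another tumour was left out) and -0.69 without the 3 tumours that stood apart (KPC 1, Twist cKO 2 and Snail cKO 3), a setting chosen after seeing the data. Without background correction several named differences were over 1.5 times smaller: in Snail cKO against Twist cKO, Abcg1 was -0.93, Abca2 -0.23, Abca9 -0.38, Abce1 0.40 and Abcb6 0.33, and in Twist cKO against KPC, Abcg1 was 0.82, Abcc9 0.62, Abca8b -0.27 and Abca15 -0.15, and in Snail cKO against KPC, Abca9 was -0.64, Abca8b -0.30 and Abca15 -0.22.

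The median member difference in Twist cKO against KPC was -0.21 without KPC tumour 1 and Twist cKO tumour 2, and -0.21 without the 3 tumours, and leaving out 1 tumour at a time gave -0.17 to 0.040. In Snail cKO against KPC it was 0.12 with detection on at least 1 array, 0.12 with detection p under 0.01 and -0.14 without the 3 tumours, with -0.078 to 0.094 when 1 was left out. In Snail cKO against Twist cKO it was -0.11 in the authors' table, 0.10 with detection on at least 1 array, 0.10 with detection p under 0.01 and 0.055 with no filter, and -0.14 to 0.041 when 1 was left out. In both cKO groups against KPC, leaving out 1 gave -0.075 to 0.030. Genes passing numbered 0 throughout, except 1 in Twist cKO against KPC and 1 in both cKO groups against KPC without the 3 tumours, and 0 to 3 in Twist cKO against KPC and 0 to 1 in Snail cKO against Twist cKO when 1 tumour was left out, the 3 and the 1 without Twist cKO tumour 1. None was a member. Beyond the filters, which change the genes tested, the cause was not tested. No paired analysis was possible because the labels give no replicate numbers that groups share. Signal close to background limits the dim members, 10 of which were detected on no array.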

Other observations

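Some member probes were detected on a single array. Of 13 such probes, 4 were seen in Snail cKO tumour 2, 3 in Snail cKO tumour 1, 2 in Snail cKO tumour 3, 3 in Twist cKO tumour 3, 1 in KPC tumour 2 and 0 in the other 4 tumours. Over all probes detected on 1 array only, 3976 in number, Twist cKO tumours 1, 2 and 3 held 14.9%, 21.2% and 6.36%, Snail cKO tumours 1, 2 and 3 held 13.4%, 7.82% and 8.15%, and KPC tumours 1, 2 and 3 held 11.3%, 6.46% and 10.4%. Counting any of its probes, 23 of the 48 members were seen in Snail cKO tumour 2, and 25 to 29 in the other 8 tumours.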
